A study of Homo sapiens with 4 samples.

Results

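The transcripts described here encode 36 ribosome biogenesis and nucleolar factors, the proteins that transcribe, modify, cut and fold ribosomal RNA and assemble it with ribosomal proteins. They were chosen by gene symbol among proteins of this pathway, with earlier results of these data known, and all 36 were found in the deposited table of 60666 rows, each on a single row. All 36 also passed the filter of a mean of at least 1 TPM that left 15051 rows for testing. The RNA came from HGC27 cells, a long-established line of human gastric cancer, cultured for 24 h in glucose-free DMEM with 10% FBS, either with 25 mM exogenous lactate (lactate, n = 2) or without it (noglu, n = 2). Both groups therefore lacked glucose in the medium, and a medium with glucose was not analysed here. Labels number the samples 1 and 2 in each group without saying whether they were separate cultures. The p-values set the difference between the groups against the spread within them. That spread may be technical only, and the p-values may then be too small. The study asked how lactate acts on gene activity in gastric cancer cells when glucose is absent.

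Ribosomes are built in the nucleolus, where RNA polymerase I transcribes the ribosomal RNA genes into a long precursor. Small nucleolar ribonucleoproteins (snoRNPs) then modify nucleotides of this precursor by methylation (box C/D) or pseudouridylation (box H/ACA). The small subunit processome folds and cleaves it, and separate sets of factors finish the 40S and 60S subunits before and after export to the cytoplasm. Making ribosomes takes up a large share of the transcription and energy of a growing cell, and genes of this pathway are known targets of the growth-promoting transcription factor MYC.

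Values are in TPM, a share of transcripts scaled by length and by the library total. TPM keeps no record of sequencing depth, so no counting error can be given, and it does not tell whether the amount of RNA per cell differed. In bulk RNA of this kind, fewer cells expressing a gene and less of its RNA per cell cannot be told apart. Rows above 0 numbered 25075 and 23457 with lactate, against 25764 and 23272 without, and mitochondrially encoded rows took 12.4% and 12.6% of TPM with lactate, against 12.9% and 13.6% without. Of 6 epithelial markers, EPCAM, KRT18 and KRT19 stayed below 1 TPM in all 4 libraries, so that these 3 were nearly absent. The other 3, KRT7, KRT8 and CDH1, reached a mean of 1 TPM, and their log2 fold changes of lactate over noglu lay above 0. The 6 together summed to 12.7 and 9.99 TPM with lactate, against 5.52 and 4.47 TPM without, and KRT8 was called higher with lactate. Of 20 markers of other cell types, 8 reached a mean of 1 TPM, led by the matrix genes COL1A1, DCN and LUM and by the erythroid gene HBA1, at 108 and 79.8 TPM with lactate, against 101 and 112 TPM without, while CD3E, KDR, S100B and HBB were listed at 0 in all libraries. Together the 20 summed to 849 and 847 TPM with lactate, against 753 and 786 TPM without, with COL1A2 and PDGFRA called higher, and their part in the results below was not tested.

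With lactate, transcripts of 14 ribosome biogenesis factors fell, 5 of them in the small subunit processome. NOP56, UTP20, NOP14, RRP9 and NCL were among those that fell, and FBL, NOP2, WDR12 and NOB1 overlapped between the groups. Of the 36 factors, 14 fell, none rose and 22 did not pass the test in limma at an adjusted p under 0.05. Over all tested rows, 6.59% were called, 1.90% as lower and 4.69% as higher. The count of 0 rises also held at an unadjusted p under 0.05, where 27 of the 36 factors were below 0 and none above, against 1347 rows below and 2902 above of all 15051. Fold changes are lactate over noglu on the log2(TPM + 1) scale, with the SE of the model after ±. Their median was -0.52 over the 36 factors and 0.08 over all tested rows, and 35 of the 36 lay below 0, as did 40.8% of all tested rows. In 32 factors both lactate libraries lay below both noglu libraries, which was the case in 21.3% of all tested rows, and the groups overlapped in the other 4. The reverse order was found in none of the factors and in 37.0% of all tested rows.

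The 36 factors together took up 6235 and 6786 TPM in the lactate libraries, against 9010 and 9256 TPM in the noglu libraries. The mean of the lactate libraries was 71.3% of that of the noglu libraries, and 74.6% when the abundant NPM1 and NCL were left out. Among the 14 that fell, the lactate mean lay between 48.2% and 69.9% of the noglu mean. The calls sat close to the threshold, with adjusted p between 0.0244 and 0.0494, and 8 of the 22 factors that were not called had an adjusted p between 0.0502 and 0.10. Leaving out any 1 of the 4 libraries ended all 14 calls, at adjusted p of 0.110 to 0.285, and so did testing 30146 rows with no filter, at 0.108 to 0.122. The log2 fold changes of the 14 in those fits ran between -1.06 and -0.44. The plot of TPM by library shows each factor's level in the 4 samples.

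**Figure D1:**
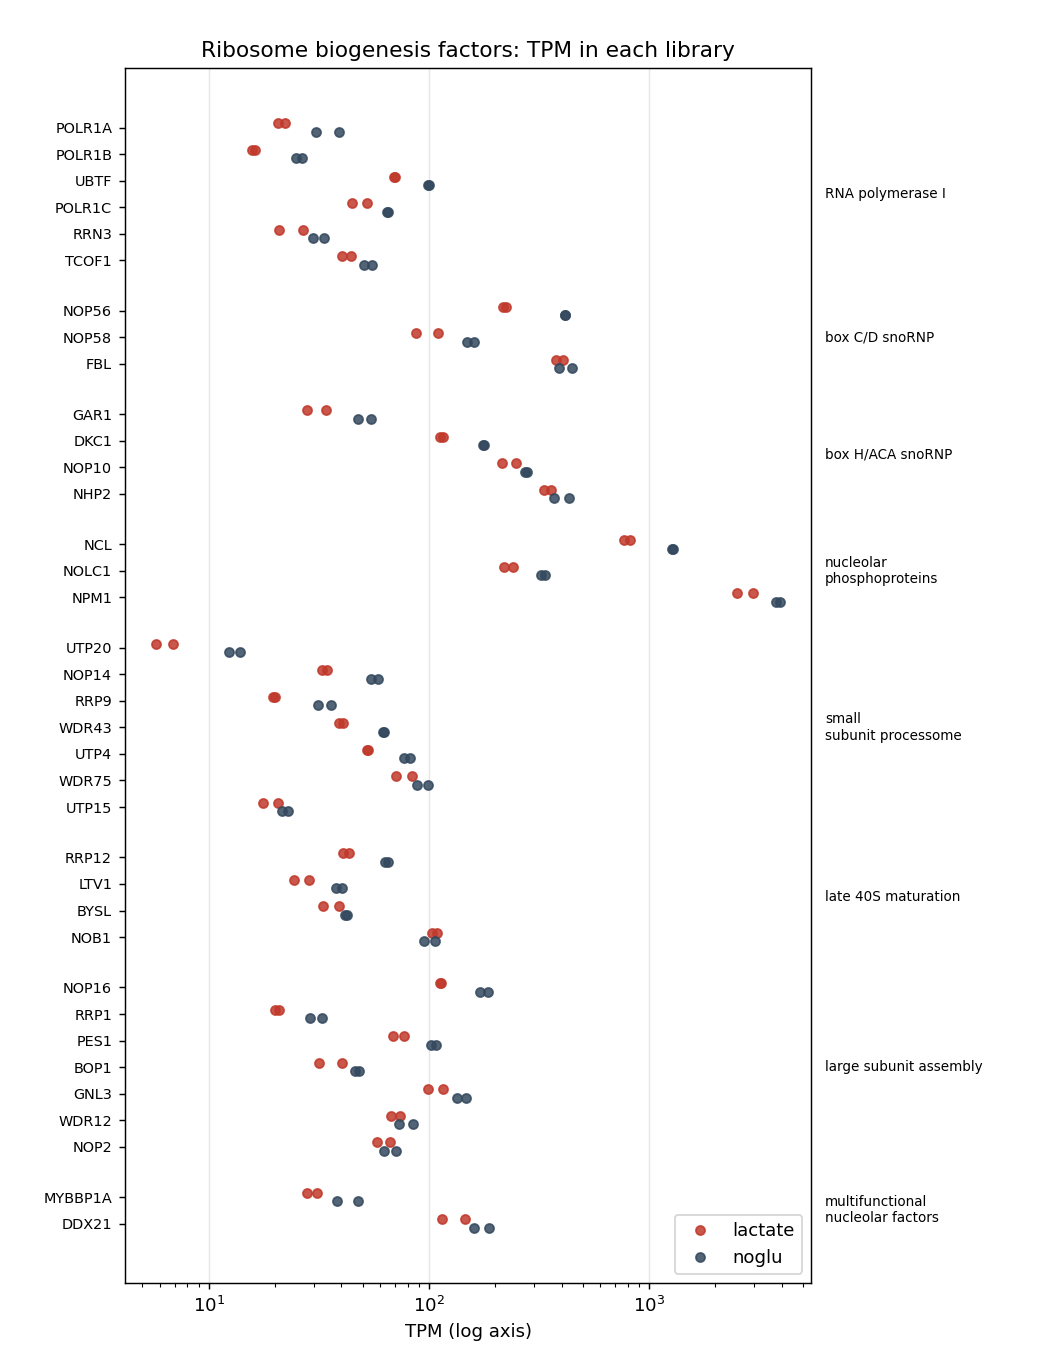
TPM (log axis) of the 36 factors in the 2 lactate libraries (red) and the 2 noglu libraries (dark blue), grouped by role, 1 point per library. Red points lie left of the dark blue points without overlap in 32 factors, and overlap with them in FBL, NOB1, WDR12 and NOP2.

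Transcription of ribosomal RNA genes was represented by 6 factors, of which 2 fell and 4 did not pass the test, with a median log2 fold change of -0.46. POLR1B, the second largest subunit of RNA polymerase I (chromosome 2, 112541915 to 112577150 in GRCh38), was at 15.7 and 16.3 TPM in the lactate libraries, against 26.5 and 24.9 TPM in the noglu libraries. This was a log2 fold change of -0.65 ± 0.11 (adjusted p = 0.0405). UBTF, which binds the promoter of ribosomal RNA genes and keeps them open (chromosome 17, 44205033 to 44221626), fell by 0.51 ± 0.09 on the log2 scale (adjusted p = 0.0410), with 69.2 and 69.8 TPM with lactate, against 99.6 and 99.2 TPM without. Its replicates differed by less than 1 TPM in each group. The catalytic subunit gene POLR1A had a lower log2 fold change, -0.67 ± 0.15 (adjusted p = 0.0604), and was not called. Its noglu libraries lay further apart, at 39.0 and 30.6 TPM. Closest to no change in this group was TCOF1, which encodes the nucleolar scaffold treacle, at 44.4 and 40.2 TPM with lactate, against 50.5 and 55.2 TPM without and a log2 fold change of -0.32 ± 0.11 (adjusted p = 0.138). POLR1C, a subunit shared with RNA polymerase III, and RRN3, which recruits the polymerase to the promoter, had log2 fold changes of -0.41 and -0.40, with both lactate libraries below both noglu libraries. RRN3 has pseudogenes that took up to 39.9% of its own TPM, so its value is uncertain.

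Of the 3 core proteins of box C/D snoRNPs among the 36 factors, 1 fell, and 1 overlapped between the groups. SNU13, the remaining core protein and not one of the 36, also overlapped, with a log2 fold change of -0.13 ± 0.13 (adjusted p = 0.548). NOP56 (chromosome 20, 2652145 to 2658393), a scaffold protein of the complex, had the smallest adjusted p of all 36 factors and fell to 223 and 218 TPM in the lactate libraries, against 413.9 and 413.9 TPM in the noglu libraries. The lactate mean was 53.3% of the noglu mean, a log2 fold change of -0.91 ± 0.08 (adjusted p = 0.0244). NOP58, the paralog that pairs with NOP56 in the particle, had a log2 fold change of -0.65 ± 0.14 (adjusted p = 0.0549), with lactate libraries of 87.1 and 110.1 TPM. FBL, the methyltransferase of the complex, was at 406 and 377 TPM in the lactate libraries, against 448 and 390.2 TPM in the noglu libraries. These ranges overlapped, and the log2 fold change was -0.10 ± 0.10 (adjusted p = 0.582), 95% interval -0.35 to 0.16.

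Among the 4 core proteins of box H/ACA snoRNPs, 1 fell and 3 did not pass the test, and in all 4 both lactate libraries lay below both noglu libraries. DKC1, the pseudouridine synthase dyskerin (chromosome X, 154762742 to 154777689), was at 112 and 115 TPM in the lactate libraries, against 178 and 177 TPM in the noglu libraries. It fell by 0.64 ± 0.08 on the log2 scale (adjusted p = 0.0327). GAR1, which binds dyskerin directly, had a log2 fold change of -0.71 ± 0.14 (adjusted p = 0.0502), just short of the threshold, with 27.8 and 34.1 TPM with lactate, against 47.8 and 54.6 TPM without. The lactate level of GAR1 was 60.5% of the noglu level, below that of DKC1 at 64.2%, but its replicates lay further apart. NHP2 and NOP10, the small RNA-binding subunits, were nearer to no change. NHP2 was at 334 and 359 TPM with lactate, against 370.3 and 431 TPM without and a log2 fold change of -0.21 ± 0.11 (adjusted p = 0.270). NOP10 had a log2 fold change of -0.25 ± 0.10 (adjusted p = 0.184).

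Of the 3 nucleolar phosphoproteins 2 fell, and NPM1 and NCL had the highest TPM of the 36 factors in every library. NCL, nucleolin, which binds nascent ribosomal RNA (chromosome 2, 231453531 to 231483641), was at 770.0 and 817 TPM in the lactate libraries, against 1272 and 1279.8 TPM in the noglu libraries, and fell by 0.68 ± 0.08 on the log2 scale (adjusted p = 0.0305). NOLC1, a snoRNP chaperone (chromosome 10, 102152176 to 102163871), fell by 0.52 ± 0.09 on the same scale (adjusted p = 0.0415), with 219 and 241 TPM with lactate, against 324 and 338 TPM without. NPM1, nucleophosmin, which shapes the outer layer of the nucleolus, was at 2510.2 and 2951 TPM with lactate, against 3782 and 3927 TPM without. It missed the threshold, with a log2 fold change of -0.50 ± 0.10 (adjusted p = 0.0522), and its lactate libraries differed by more than its noglu libraries. Its 49 pseudogene rows summed to at most 1.01% of its own TPM.

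The small subunit processome held 5 of the 14 factors that fell, out of 7. UTP20 (chromosome 12, 101280109 to 101386616), a large scaffold of the 40S precursor, had the lowest log2 fold change of the 36 factors. It was at 5.76 and 6.89 TPM in the lactate libraries, against 12.3 and 13.9 TPM in the noglu libraries, a lactate mean of 48.2% of the noglu mean and a log2 fold change of -0.95 ± 0.15 (adjusted p = 0.0376). NOP14 (chromosome 4, 2937933 to 2963385), needed for 18S ribosomal RNA maturation, was at 32.8 and 34.5 TPM with lactate, against 54.8 and 58.4 TPM without, a log2 fold change of -0.73 ± 0.10 (adjusted p = 0.0328). RRP9 (chromosome 3, 51933430 to 51941941), a protein of the U3 snoRNP that guides the first cleavages, was at 20.0 and 19.6 TPM with lactate, against 35.8 and 31.2 TPM without, a log2 fold change of -0.73 ± 0.12 (adjusted p = 0.0390). The groups did not overlap in any of these 3 genes. WDR43 (chromosome 2, 28894643 to 28948222) and UTP4 (chromosome 16, 69131291 to 69231130) belong to the module that binds the precursor first, also called t-UTP. WDR43 was at 39.1 and 40.9 TPM with lactate, against 62.3 and 62.1 TPM without, a log2 fold change of -0.62 ± 0.09 (adjusted p = 0.0355). UTP4 was at 52.1 and 52.9 TPM with lactate, against 77.4 and 81.7 TPM without, a log2 fold change of -0.59 ± 0.09 (adjusted p = 0.0376). The other t-UTP members among the 36 factors, UTP15 and WDR75, did not pass the test. UTP15 was at 17.6 and 20.6 TPM with lactate, against 22.9 and 21.5 TPM without, so that its groups were separated by less than 1 TPM. Its log2 fold change was -0.21 ± 0.13 (adjusted p = 0.333), and WDR75 had a log2 fold change of -0.28 ± 0.13 (adjusted p = 0.222).

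In late maturation of the 40S subunit 1 of 4 factors fell. RRP12 (chromosome 10, 97356358 to 97426076), which takes part in export of the subunits, was at 43.5 and 40.9 TPM in the lactate libraries, against 63.4 and 65.3 TPM in the noglu libraries, a log2 fold change of -0.60 ± 0.10 (adjusted p = 0.0390). LTV1 and BYSL, which ride on the 40S precursor, had log2 fold changes of -0.55 (adjusted p = 0.0582) and -0.22 (adjusted p = 0.293). NOB1, the nuclease that makes the last cut of 18S ribosomal RNA in the cytoplasm, was the exception among the 36 factors, with a log2 fold change above 0. It was at 108 and 103 TPM with lactate, against 95.2 and 106 TPM without, a log2 fold change of 0.07 ± 0.10 (adjusted p = 0.669), 95% interval -0.18 to 0.32. These ranges overlapped, and the value was -0.04 under median-ratio scaling and -0.006 without the first noglu library.

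Among the 7 factors of large subunit assembly, 2 fell. NOP16 (chromosome 5, 176383938 to 176388975), a nucleolar protein of the early 60S precursor, was at 112 and 114 TPM in the lactate libraries, against 170.1 and 186 TPM in the noglu libraries, a log2 fold change of -0.65 ± 0.09 (adjusted p = 0.0337). PES1 (chromosome 22, 30576625 to 30607083), which forms the PeBoW complex with BOP1 and WDR12, was at 76.6 and 68.3 TPM with lactate, against 108 and 102 TPM without. Its log2 fold change was -0.53 ± 0.10 (adjusted p = 0.0494), and the call ended under median-ratio scaling (adjusted p = 0.0519). Its partner BOP1 had a log2 fold change of -0.39 ± 0.14 (adjusted p = 0.146). For the other partner, WDR12, the groups overlapped, at 67.5 and 73.5 TPM with lactate, against 84.2 and 73.2 TPM without, with a log2 fold change of -0.15 ± 0.11 (adjusted p = 0.416) and a 95% interval -0.44 to 0.13. RRP1 and the nucleolar GTPase GNL3, also known as nucleostemin, had log2 fold changes of -0.57 (adjusted p = 0.0512) and -0.39 (adjusted p = 0.103). NOP2, which methylates 28S ribosomal RNA, was at 57.8 and 66.6 TPM with lactate, against 62.2 and 70.8 TPM without, again with overlapping groups. Its log2 fold change was -0.09 ± 0.12 (adjusted p = 0.653), 95% interval -0.40 to 0.21. Another annotated gene on the same strand, AC006064.6, shares 54.4% of the annotated exon bases of NOP2, so its value is uncertain.

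DDX21, an RNA helicase that acts in transcription by RNA polymerases I and II, and MYBBP1A, a nucleolar protein that binds MYB, did not pass the test. DDX21 was at 115 and 146 TPM with lactate, against 161 and 188 TPM without, a log2 fold change of -0.42 ± 0.15 (adjusted p = 0.145), and MYBBP1A had one of -0.52 ± 0.14 (adjusted p = 0.0893). In both genes the lactate libraries lay below the noglu libraries. The plot of fold changes sets all 36 factors side by side.

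**Figure D2:**
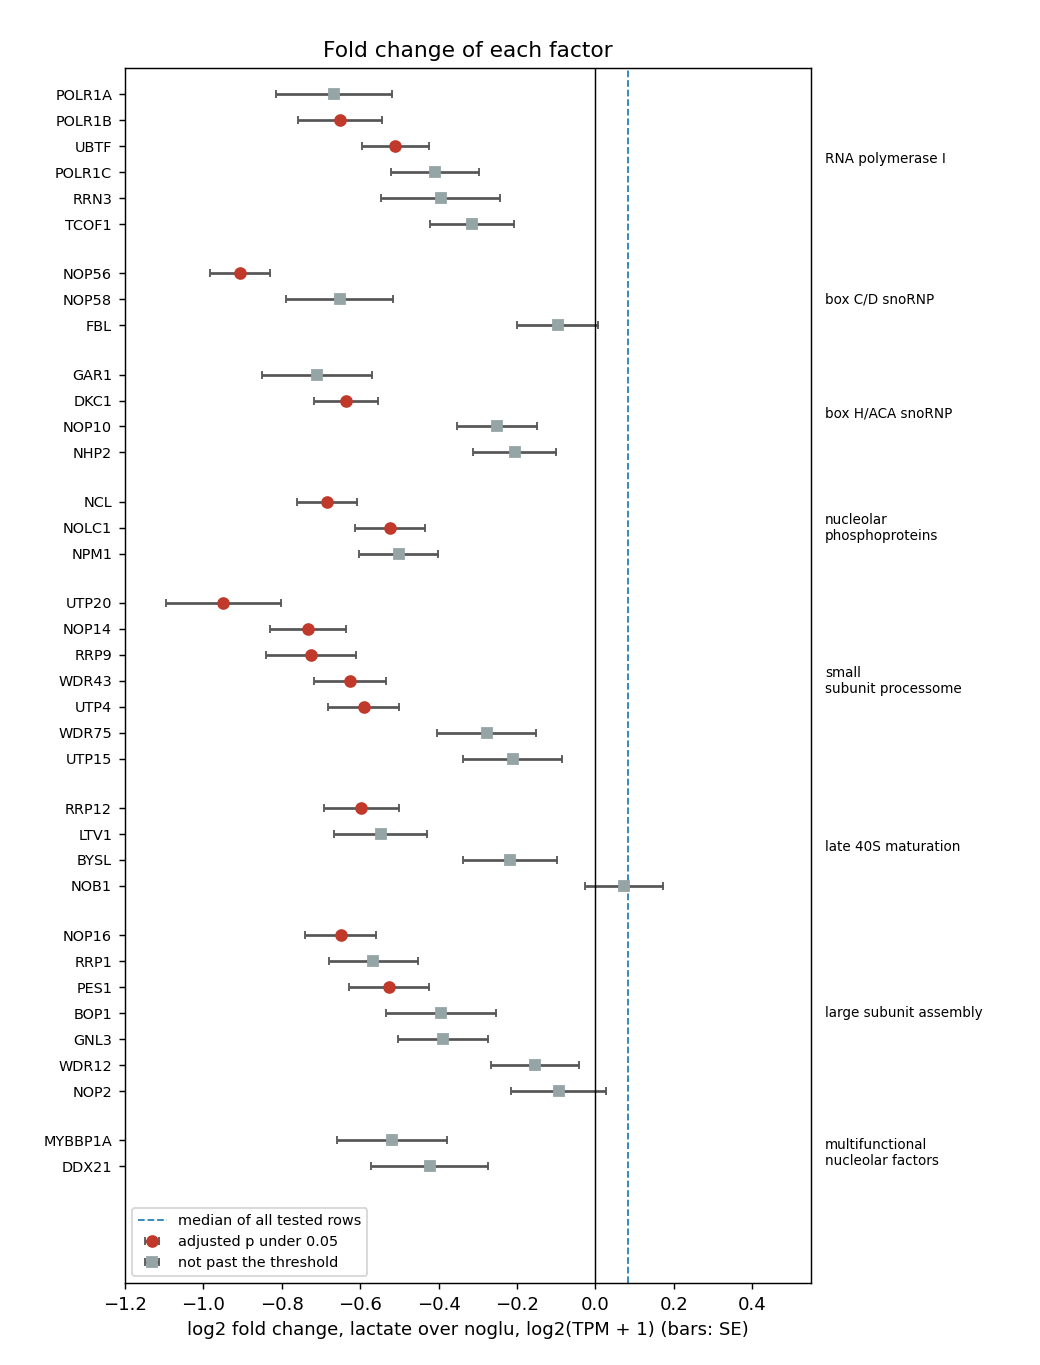
Log2 fold change of lactate over noglu for each of the 36 factors, with bars for the SE from limma (4 libraries), grouped by role. The 14 factors that passed the test (red circles) lie between -0.95 and -0.51, the 22 others (grey squares) between -0.71 and 0.07, and the dashed line is the median of all tested rows, 0.08.

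Because TPM is scaled by length, levels of different factors can be set against each other within a library, and such a ratio does not depend on the scaling of that library. Factors of the same particle or kind are shown, and the 12 pairs were chosen after their values were seen. NOP56 to FBL stood at 0.55 and 0.577 in the lactate libraries, against 0.923 and 1.06 in the noglu libraries. Transcripts of the scaffold and of the methyltransferase were thus near parity without lactate, and lactate libraries held fewer NOP56 than FBL transcripts. DKC1 to NHP2 stood at 0.335 and 0.321 in the lactate libraries, against 0.48 and 0.41 in the noglu libraries. GAR1 to NHP2 stood at 0.0833 and 0.095 in the lactate libraries, against 0.129 and 0.127 in the noglu libraries. Both ratios were lower with lactate in every library. PES1 to WDR12 stood at 1.14 and 0.929 in the lactate libraries, against 1.28 and 1.39 in the noglu libraries, and UTP4 to UTP15 at 2.96 and 2.56 in the lactate libraries, against 3.37 and 3.8 in the noglu libraries. The ratio of NPM1 to NCL was higher with lactate, at 3.26 and 3.61 in the lactate libraries, against 2.97 and 3.07 in the noglu libraries. BOP1 to WDR12 overlapped between the groups, and the other 11 of the 12 pairs lay apart. Most pairs set a factor that fell against one that did not pass the test, so the choice of pairs largely fixed that their ratios lie apart, and the ratios stand as a description with no test.

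**Figure D3:**
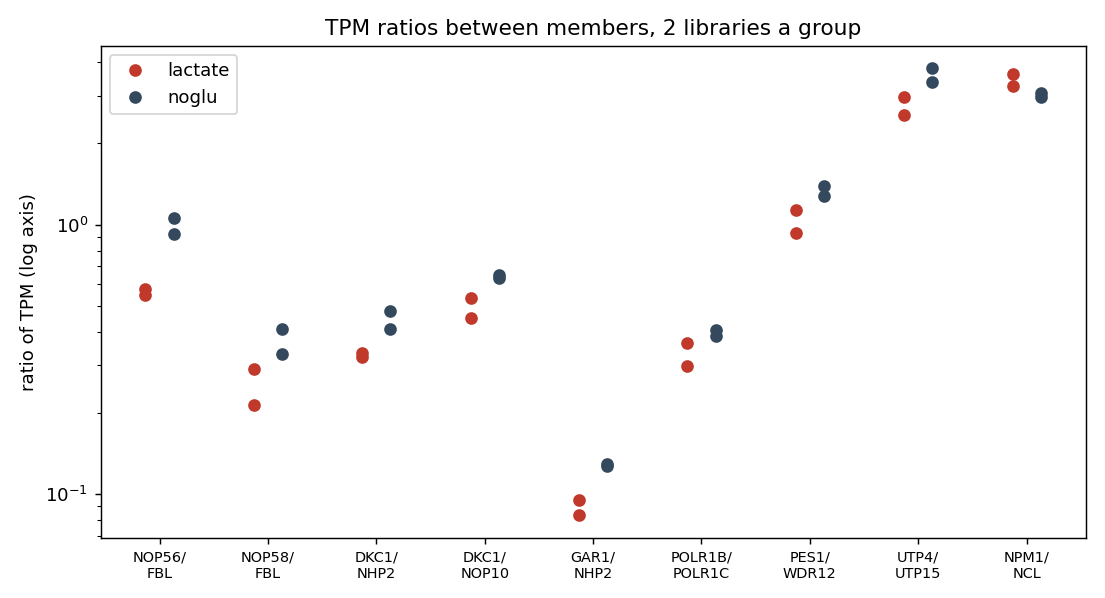
Ratio of TPM (log axis) between factors of the same particle or kind in each library, for 9 of the 12 pairs. Lactate is in red left of noglu in dark blue, 2 libraries a group. BOP1 to WDR12, the only pair whose groups overlapped, is not shown. NOP56 to FBL lies between 0.55 and 0.58 with lactate and between 0.92 and 1.06 without.

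Promoter sequence was compared next, for factors chosen from a pathway with known MYC targets. RefSeq promoter windows on GRCh38.p14, from 250 bases before to 50 bases after the transcription start, were at hand for 31 of the 36 factors, not for BOP1, NOLC1, NOP58, RRP12 and TCOF1. Some factors have several starts, with 38 windows in all, and a gene was counted where any of its windows held a motif. The E-box CACGTG, the letters that MYC and related factors bind and the same on both strands, was found in 15 of the 31, or 48.4%. It was found in 12.8% of the 10241 tested genes with a window and in 7.26% of all 35116 windows. The factors' windows were also richer in G and C, with a median of 64.15% against 58.7% of all windows. The median over tested genes alone was not computed, and the part of this richness in the share with the E-box was not tested. In 6 of the 12 factors with a window that fell, and in 9 of the 19 that did not pass the test, the E-box was present. The stretches below run from 60 bases before to 25 bases from the start, 5′ to 3′ on the coding strand, and are shown because they hold the E-box (in capitals) in those 6 factors and in FBL, whose levels overlapped.
UTP20: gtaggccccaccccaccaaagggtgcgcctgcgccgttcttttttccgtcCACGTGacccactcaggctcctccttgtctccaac
RRP9: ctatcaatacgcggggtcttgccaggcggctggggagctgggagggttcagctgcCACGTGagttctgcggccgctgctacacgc
UTP4: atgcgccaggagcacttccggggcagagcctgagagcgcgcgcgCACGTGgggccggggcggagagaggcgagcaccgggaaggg
WDR43: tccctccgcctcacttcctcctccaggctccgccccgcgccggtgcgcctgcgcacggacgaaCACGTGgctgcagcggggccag
NOP14: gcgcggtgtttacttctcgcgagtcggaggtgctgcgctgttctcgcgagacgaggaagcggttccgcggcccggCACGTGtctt
PES1: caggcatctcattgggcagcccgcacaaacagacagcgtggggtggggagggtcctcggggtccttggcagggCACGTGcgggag
FBL: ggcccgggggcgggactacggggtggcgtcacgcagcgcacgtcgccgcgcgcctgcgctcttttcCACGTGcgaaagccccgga

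These stretches lie at chr12:101280045-101280129, plus strand (UTP20), chr3:51941880-51941964, minus strand (RRP9), chr16:69132589-69132673, plus strand (UTP4), chr2:28894607-28894691, plus strand (WDR43), chr4:2963382-2963466, minus strand (NOP14), chr22:30591886-30591970, minus strand (PES1) and chr19:39846355-39846439, minus strand (FBL). The first base of the E-box was at -10, -5 and -16 from the start in UTP20, RRP9 and UTP4. In WDR43, NOP14, PES1 and FBL it lay past the start, at positions 4, 16, 14 and 7. The windows of NOP56, the box C/D protein that fell, and of NOB1 hold no CACGTG, and the same stretches of both are given for comparison.
NOP56: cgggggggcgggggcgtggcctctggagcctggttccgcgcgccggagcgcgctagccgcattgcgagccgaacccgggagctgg
NOB1: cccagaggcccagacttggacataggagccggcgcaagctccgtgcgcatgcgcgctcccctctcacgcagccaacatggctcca

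They lie at chr20:2652572-2652656, plus strand (NOP56) and chr16:69754902-69754986, minus strand (NOB1). Among the 31 factors the median log2 fold change was -0.53 with the E-box and -0.51 without it. Over all tested genes with a window the medians were 0.007 with and 0.096 without it. CCGGAAG, a core of sites for ETS factors, was found on either strand in 11 of the 31 factors (35.5%, against 22.7% of tested genes). GGAATG, the letters bound by the TEAD factors that the study followed, was on either strand in 5 (16.1%, against 15.0% of tested genes). None of these 5 passed the test, though all 5 lay below 0. GAR1 and NPM1 among them were just short of the threshold (adjusted p = 0.0502 and 0.0522, limma). The median log2 fold change of the factors was -0.28 with GGAATG and -0.54 without it. A match describes these letters only and is not a binding site. MYC itself, named here after its values were seen, was at 194 and 187 TPM with lactate, against 234 and 253 TPM without, a log2 fold change of -0.35 ± 0.09 (adjusted p = 0.0753).

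Several of the 36 genes also carry small nucleolar RNA genes within their bodies on the same strand, by GENCODE release 29. These 7 host genes were NOP56, NOP58, DKC1, NCL, WDR43, POLR1C and GNL3, of which 4 fell, with a median log2 fold change of -0.64. Of the 29 others 10 fell, with a median of -0.51. Strand use in counting is not given in the sources used here, and exons of NHP2 (27.4% of its exon bases), NOB1 (20.2%), NOP14 (17.1%) and NOP16 (344 of 2862 bases with ARL10 and 227 with HIGD2A) overlap those of genes on the opposite strand, whose reads may be counted with them.

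Other genes of the pathway, 156 in 6 lists, also fell where they passed the test. Of the 155 tested, 16 fell, none rose and 139 did not pass the test in limma, with 65 below 0 and 4 above 0 at an unadjusted p under 0.05. The share that fell was 10.3%, against 38.9% of the 36 factors and 1.90% of all tested rows, and 135 of the 155 lay below 0 with a median of -0.29. In the wider small subunit processome 7 of 41 fell. They included WDR3 of the UTP-B module, the RNA acetyltransferase NAT10, UTP14A, the helicase DHX37 and PNO1, with log2 fold changes of -0.81, -0.62, -0.59, -0.66 and -0.63. TBL3, another processome protein, stood apart at 43.2 and 35.6 TPM with lactate, against 17.1 and 23.5 TPM without, a log2 fold change of 0.93 ± 0.19 (adjusted p = 0.0519), and was named after its values were seen. In the 57 tested genes of large subunit assembly and export 4 fell, namely RRS1, PPAN, DDX56 and MRTO4, with log2 fold changes of -0.83, -0.56, -0.49 and -0.56, and 54 lay below 0.

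Of 16 other genes of RNA polymerase I and its initiation 1 fell. POLR1G, a subunit found in RNA polymerase I alone, was at 3.84 and 3.37 TPM in the lactate libraries, against 8.47 and 9.43 TPM in the noglu libraries, a log2 fold change of -1.11 ± 0.15 (adjusted p = 0.0328). This value was below that of any of the 36 factors. The median of these 16 genes was -0.16, with 11 below 0 and 5 above. POLR1H, TAF1A, TAF1D and POLR1D had log2 fold changes of 0.35, 0.33, 0.32 and 0.28 without passing the test. In these 4 both lactate libraries lay above both noglu libraries, and the reverse was found in 6. Of the 7 genes of late 40S maturation, TSR1 alone fell (-0.54). Of 22 tested genes of the exosome and RNase MRP, which trim and cut the precursor, RPP40, EXOSC5 and EXOSC3 fell by 0.78, 0.57 and 0.50 on the log2 scale, and the median was -0.15. None of 12 snoRNP assembly genes passed the test in limma, and 4 of them had an unadjusted p under 0.05, all below 0.

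Genes for the ribosomal proteins, which these factors assemble with ribosomal RNA, gave no call. Of 78 cytosolic ribosomal protein genes none passed the test in limma, 5 had an unadjusted p under 0.05 (all above 0), and 26 of the 78 lay below 0. Their median log2 fold change was 0.06, near the 0.08 of all tested rows. They summed to 257304 and 248767 TPM in the lactate libraries, against 247086 and 238809 TPM in the noglu libraries. Among 22 genes of RNA polymerase III and its factors 3 fell, GTF3C6 (-0.90), POLR3B (-0.71) and GTF3A (-0.57), and the median was -0.15. In the 7 genes particular to RNA polymerase II none passed the test in limma, 1 had an unadjusted p under 0.05, and the median was -0.07. Differences between these lists were not tested, and the values stand as descriptions beside those of the 36 factors.

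**Figure D4:**
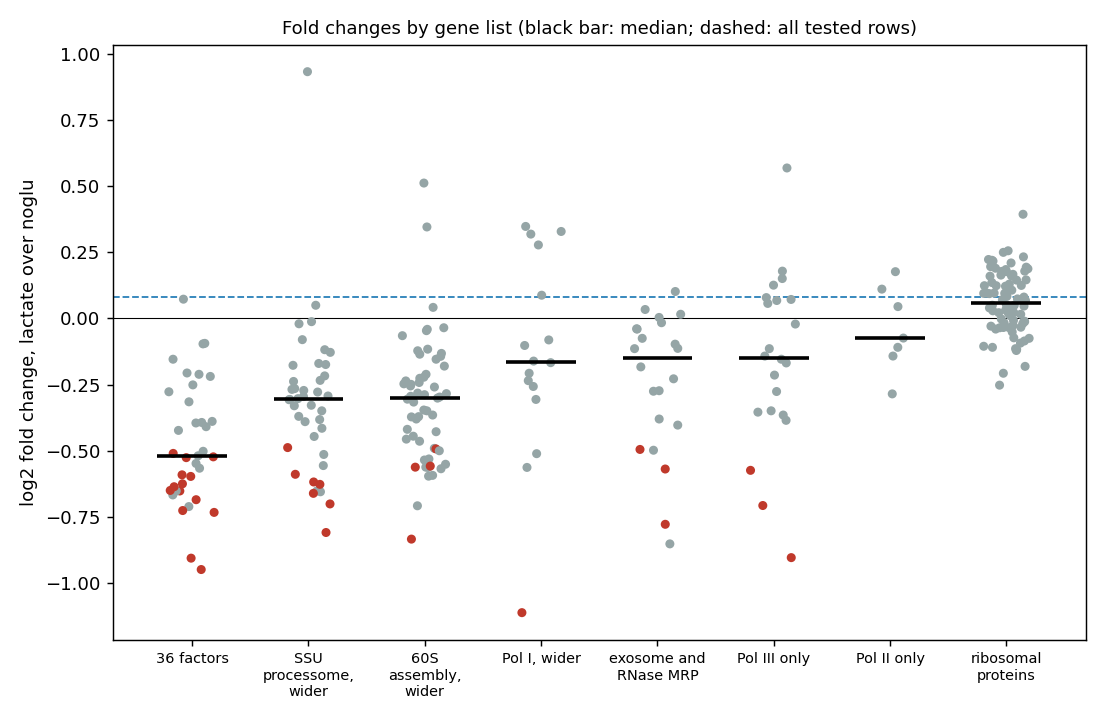
Log2 fold change of lactate over noglu for each tested gene of 8 lists, 1 point per gene, with a black bar at the list median, red for genes that passed the test as lower and grey for the rest. The medians run between -0.52 for the 36 factors and 0.06 for the ribosomal proteins, and the dashed line is the median of all tested rows, 0.08.

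Over all 15051 tested rows, 992 were called, and 286 of them, or 28.8%, fell. Median-ratio scaling of the columns turned this split to 398 falls, or 51.4% of the calls, and gave 18 falls and no rise among the 36 factors, of which 13 were among the 14 above, where 2.65% of tested rows fell. The median of all tested rows was then -0.015. A filter at 5 TPM gave 20 falls among the factors, against 4.12% of the rows tested there, and protein-coding genes alone gave 22, against 4.93%. The direction of these 14 factors did not depend on the scaling, the pseudocount or the filter under any alternative tried.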

How the data were processed

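RNA of HGC27 cells was sequenced in 2 lactate and 2 noglu samples. The authors deposited TPM values with 2 decimals, summing to between 995439 and 996089 per library. The submitters' processing notes name RSEM 1.3.3 and hg38. Not given in the sources used here are the aligner, the annotation and the use of strand. Depth is unknown, so no interval for counting error was computed.

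Where a row averaged 1 TPM or more over the 4 libraries, it was tested on log2(TPM + 1) with limma 3.58.1 in R 4.3.3, with group as the only term and a prior variance set by mean expression. Tests were two-sided, with Benjamini-Hochberg adjustment over the 15051 rows and calls at an adjusted p under 0.05. Errors are model SE. Members and lists were chosen with earlier results of these data known, so no list was tested as a set. Given in full were the factors called, the 6 largest and 6 smallest log2 fold changes, and the factor nearest to no change in each role group. From each wider list, up to 5 called genes with the smallest adjusted p were named. Names and coordinates come from the table and from GENCODE release 29 on GRCh38, the same assembly as hg38, and 1 listed gene was found under an older symbol.

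The fit was repeated with the replicate number as a block, without each of the 4 libraries, with 0.1 as pseudocount, with no filter or one at 5 TPM, after median-ratio scaling, without mitochondrial genes and on protein-coding genes alone.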

Additional observations from a re-analysis of the deposited data

How the results depend on the processing

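The 14 falls, the absence of rises and the median of -0.52 were recomputed under 11 alternatives. With 1 library left out the lone sample borrows its spread from the other group, and 1 residual degree of freedom remains. Calls over all rows then numbered between 0 and 10 (0 to 8 rises, 0 to 7 falls), calls among the 36 factors and the wider lists 0, and the median of the factors lay between -0.58 and -0.49. Between 19 and 26 factors had an unadjusted p under 0.05 in those fits, as did between 2396 and 3846 of all rows. Without a filter there were 0 calls over all rows (0 up, 0 down), among the factors and among the wider lists, where 30146 rows were tested and 26 factors and 5072 of all rows had an unadjusted p under 0.05. Restricting the table to protein-coding genes led to 2162 calls (1573 up, 589 down), 22 falls among the factors and 42 calls in the wider lists, against 992 (706 up, 286 down), 14 and 16. A 5 TPM filter gave 442 falls over all rows and 31 calls in the wider lists, with 20 falls among the factors, and median-ratio scaling 377 rises over all rows, 27 calls in the wider lists and a median of -0.63. With a replicate block 21 factors fell and 28 genes of the wider lists were called, while 385 of all rows fell and 822 rose. Same-numbered samples did not deviate together over all rows (r = 0.035), and nothing in the labels pairs them. Rows above 0 were more numerous in the first sample of both groups. The correlation cannot show that same-numbered samples share nothing, and whether they shared a culture or day is not known. Factors near 0 turned sign in single settings, NOP2 to 0.007 without the first lactate library, FBL to 0.004 and NOB1 to -0.006 without the first noglu library, and NOB1 to -0.037 under median-ratio scaling. With 1 library left out FBL ranged between -0.196 and 0.004, NOP2 between -0.195 and 0.007, and NOB1 between -0.006 and 0.151. The pseudocount of 0.1 gave 18 falls among the factors, with 336 falls and 868 rises over all rows, and removal of mitochondrial genes gave 14 among the factors, with 273 falls and 610 rises over all rows. Unknown depth and 2 samples a group limit what these calls can carry, and the causes of the changes between settings were not tested.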

Other observations

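Rows for 5.8S ribosomal RNA, an end product of this pathway, were listed 5 times with identical values, at 20.2 and 49.6 TPM in the lactate libraries, against 46.2 and 23.1 TPM in the noglu libraries. The groups overlapped, with a log2 fold change of -0.04 ± 0.50 (adjusted p = 0.968, limma). Whether ribosomal RNA was depleted before sequencing is not given in the sources consulted.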
